A study of Mus musculus with 9 samples.

Results

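The comparison described here is Smarcc1 knockdown against non-silencing control (Nons) in female mouse embryonic stem cells (mESCs) at day 7 of differentiation, read as chromatin accessibility. It rests on 2 of the 9 libraries, 1 for each condition, and on every window of the genome that had a value in both. Of 833294 windows in the deposited table, 833044 lay on chromosomes 1 to 19 and X, and 831508 of these had both values, 788419 on autosomes and 43089 on the X. The cells were F1 female mESCs from FVB/NJ dams crossed to CAST/EiJ sires, expanded with MEK and GSK3 inhibitors (2i) and then weaned from them into DME HiHi medium, in which they differentiated without direction. Both groups were transduced with a short hairpin RNA at day 2 and selected with puromycin from day 3, the knockdown with 1 hairpin against Smarcc1 and the control with 1 hairpin that targets no gene. Reads of both parental alleles were merged, so that the active and the inactive X could not be told apart. With 1 library per condition there was no replicate, no test was made, and every difference describes these libraries only.

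Smarcc1 (BAF155) is a scaffold subunit of the BAF complex, a SWI/SNF remodeller that uses the ATPase Smarca4 (BRG1) to slide and eject nucleosomes, and esBAF is the form found in mESCs. Remodelling of this kind holds promoters and enhancers open, and in female mESCs the exit from pluripotency is coupled to X chromosome inactivation, the silencing of one X by the non-coding RNA Xist. The study asked what the BAF complex does to accessibility as inactivation proceeds, and the day 7 pair is its last time point. In NOMe-seq (nucleosome occupancy and methylome sequencing), a GpC methyltransferase marks cytosines in GpC dinucleotides of fixed nuclei where no nucleosome covers them. Bisulfite sequencing then reads the marks, so a higher percent GpC methylation stands for more open chromatin.

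The hairpins are shown because they are the only designed difference between the libraries. Each guide strand is 22 bases, written 5′ to 3′ with its seed (bases 2 to 8) in capitals. The guide strand of the Smarcc1 hairpin was complementary over all 22 bases to a single site in the Smarcc1 mRNA, in coding exon 13 of 28, at chr9:110177472-110177493 on the plus strand of GRCm38. The guide strand of Nons had no match of 10 or more bases in that mRNA.
Smarcc1.6 guide strand: tGTAACTGcttcttcatcctgc
Smarcc1.6 target site: gcaggatgaagaagcagttaca
Nons guide strand: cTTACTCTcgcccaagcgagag

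Accessibility was read without RNA, so it does not show how far the Smarcc1 mRNA was reduced, and the start site of the gene is given as a description only. At the Smarcc1 start annotated by GENCODE (chr9:110117185-110119155), GpC methylation at day 7 was 7.45% in Nons and 15.6% in the knockdown. At the start annotated by RefSeq, which lies in another window (chr9:110131345-110133481), it was 19.8% in Nons and 0% in the knockdown. The pair thus differed in opposite directions at the gene's alternative starts. Over the 44 windows of the gene body the means were 8.95% and 8.43%.

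The library-wide shift came first. Mean GpC methylation over autosomal windows was 7.05% in Nons and 8.02% in the knockdown, with medians of 6.41% and 7.14%. These were the lowest levels of the series, the other 7 libraries having autosomal means from 11.2% to 22.1%. The mean paired difference between the knockdown and Nons was 0.976 percentage points, a ratio of 1.14. Mitochondrial DNA, which carries no nucleosomes, was not higher in the knockdown, its windows averaging 74.3% in Nons (range 72.0% to 75.4%) and 73.6% in the knockdown (range 72.1% to 74.7%). How much of the autosomal shift belongs to enzyme treatment or other handling and how much to the knockdown cannot be told apart with 1 library a side. The shift was therefore subtracted, and the centred differences below, in percentage points, are relative to the autosomal mean. Since a library that is higher by a ratio is higher by more points where levels are high, directions are also given after scaling Nons to the autosomal mean of the knockdown (ratio scaling) and after quantile normalization of the pair.

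The excess of the knockdown was not a uniform gain. It was higher than Nons in 54.3% of autosomal windows, lower in 45.3% and equal in 0.434%, and 47.9% of windows lay above the shift. At the same time the knockdown had more windows at 0%, 5.45% of all windows against 2.47% in Nons, and 0.222% (1843 windows) were at 0 in both. On the X the shares at 0 were 7.02% and 4.00%. The knockdown library was thus more spread, with a higher mean and more empty windows. The difference of a single autosomal window had a standard deviation (SD) of 6.71 points, and the quartiles of the centred difference were -4.20 and 3.86 points. Across windows, which are not independent, Pearson's r between the libraries was 0.0906. Of autosomal windows, 6.6% lay more than 10 points above the shift and 5.28% more than 10 points below it. Single windows of these libraries therefore carried little information, and the averages over many windows are given first, each beside the SD of the same average over the 19 autosomes, which describes spread along the genome and not between cultures. Read depth is unknown, since the deposited values are percentages without counts. The libraries did differ in windows without a value, 1414 in the knockdown, the most of the 9 libraries, and 134 in Nons. Whether sparser coverage of the knockdown made its empty windows and wider spread was not tested.

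The centred difference was larger in each successive class of GC content, from AT-rich to GC-rich windows. Autosomal windows were divided into 5 equal classes (quintiles) of GC content, with bounds at 38.5%, 41.2%, 43.9% and 47.2%. In Nons the mean level of the quintiles was 6.91%, 6.80%, 6.87%, 7.00% and 7.66% from low to high GC. In the knockdown it was 7.57%, 7.59%, 7.83%, 8.15% and 8.99%. Nons was therefore nearly flat over the lower quintiles, and the knockdown stepped up from each quintile to the next. The centred difference was -0.313 points (SD over autosomes 0.075) in the lowest quintile and 0.361 points (SD 0.0981) in the highest. The value was below 0 on all 19 autosomes in quintiles 1 and 2, and above 0 on all 19 in quintiles 4 and 5. The gap of 0.674 points between the outer quintiles (SD 0.097) remained above 0 under ratio scaling (0.570) and under quantile normalization (0.375). It was larger without the empty windows, at 0.845 points once 64029 windows at 0 or 100% in either library were left out.

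The gradient was seen outside genes and inside them. In intergenic autosomal windows the centred difference ran from -0.397 points in the lowest GC quintile through -0.301, -0.143 and 0.106 to 0.304 points in the highest. In windows inside genes it ran from -0.171 to 0.37 points. On the X it was -0.315 points in the lowest quintile and 0.344 in the highest, with -0.0401 in quintile 4. Windows of a fixed number of read positions are shorter where such positions are denser, and their length followed the density of GpC sites. From the lowest to the highest quintile of GpC density, mean length fell from 4225 to 2069 bp. Over the same quintiles the centred difference ran from -0.357 to 0.359 points. Window length moved with the difference as well, from 0.344 points in the shortest quintile to -0.348 points in the longest. Composition, GpC density, coverage and accessibility overlap here, and the parts of window length and GpC density in the GC gradient were not tested. The same gap between outer GC quintiles was -0.162 points at day 4, -1.61 points at day 5 and 0.136 points at day 6, so its direction was not shared by the pairs of the time course.

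**Figure D1:**
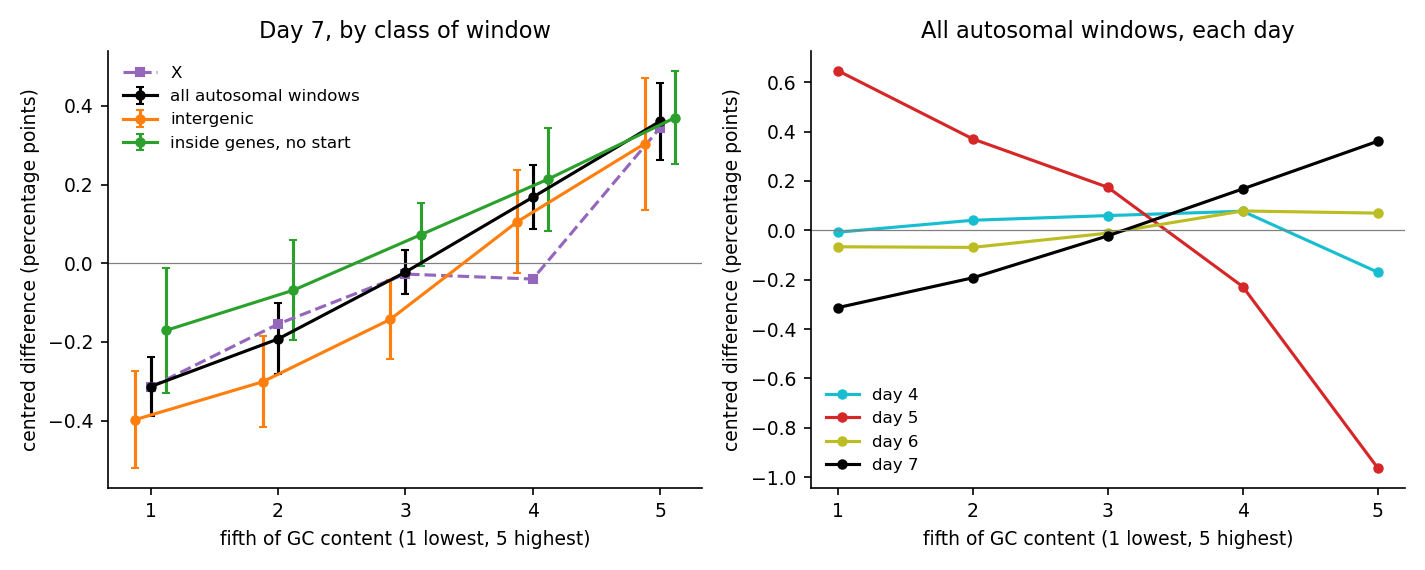
The left panel plots the centred difference between knockdown and Nons at day 7 (percentage points) by quintile of GC content for all autosomal windows, intergenic windows, windows inside genes without a start, and the X, with bars for the SD over 19 autosomes. It passes from -0.313 to 0.361 points for all autosomal windows, and the right panel shows the same autosomal quintiles at days 4 to 7, with day 5 running the opposite way.

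Gene position followed the same order. Exonic windows of gene bodies had mean levels of 7.17% in Nons and 8.41% in the knockdown, a centred difference of 0.259 points (SD 0.0883) that was above 0 on all 19 autosomes. Intronic windows had 7.05% and 8.05%, a centred difference of 0.0295 points, smaller than its SD of 0.0717. Intergenic windows had 6.80% and 7.63%, a centred difference of -0.145 points (SD 0.0674) that was above 0 on 1 autosome. Genic windows as a whole thus exceeded intergenic windows by 0.257 points (SD 0.077). When each window was compared with autosomal windows of the same GC and length class (20 GC and 5 length classes), 0.127 points of that gap remained. Matched in this way, exonic windows stood 0.141 points above and intergenic windows 0.0689 points below the autosomal mean.

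Distance to the nearest start site of a protein-coding gene or a gene for a long non-coding RNA (lncRNA) gave a graded picture. Within 2 kb the autosomal means were 9.28% in Nons and 10.5% in the knockdown, a centred difference of 0.267 points (SD 0.204). From 2 to 5 kb the centred difference was 0.177 points (SD 0.155), and from 5 to 50 kb 0.103 points (SD 0.0742). It was near 0 from 50 to 100 kb, at -0.0279 points. The sign turned farther out, with -0.215 points (SD 0.0758) from 100 to 250 kb and -0.381 points (SD 0.11) beyond 250 kb, where no autosome was above 0. Beyond 250 kb the means were 6.63% in Nons and 7.23% in the knockdown, the smallest uncentred difference of these distance classes. Matching for GC and length shrank the ends of this range to 0.0433 points within 2 kb and -0.133 points beyond 250 kb. Upstream and downstream sides were alike close to the start, at 0.255 points from -2 to 0 kb and 0.279 points from 0 to 2 kb.

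On the X the corresponding centred differences were 0.282 points within 2 kb, 0.199 from 2 to 5 kb and -0.103 from 5 to 50 kb. From 50 to 100 kb the X value was -0.229 points, from 100 to 250 kb -0.22 points and beyond 250 kb -0.308 points. Before matching, the X thus crossed 0 nearer to start sites than the autosomes did. Matched for GC and length, the X was at 0.0168 points and the autosomes at 0.0455 points from 5 to 50 kb, and both were below 0 from 50 to 100 kb, at -0.05 and -0.0012 points.

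**Figure D2:**
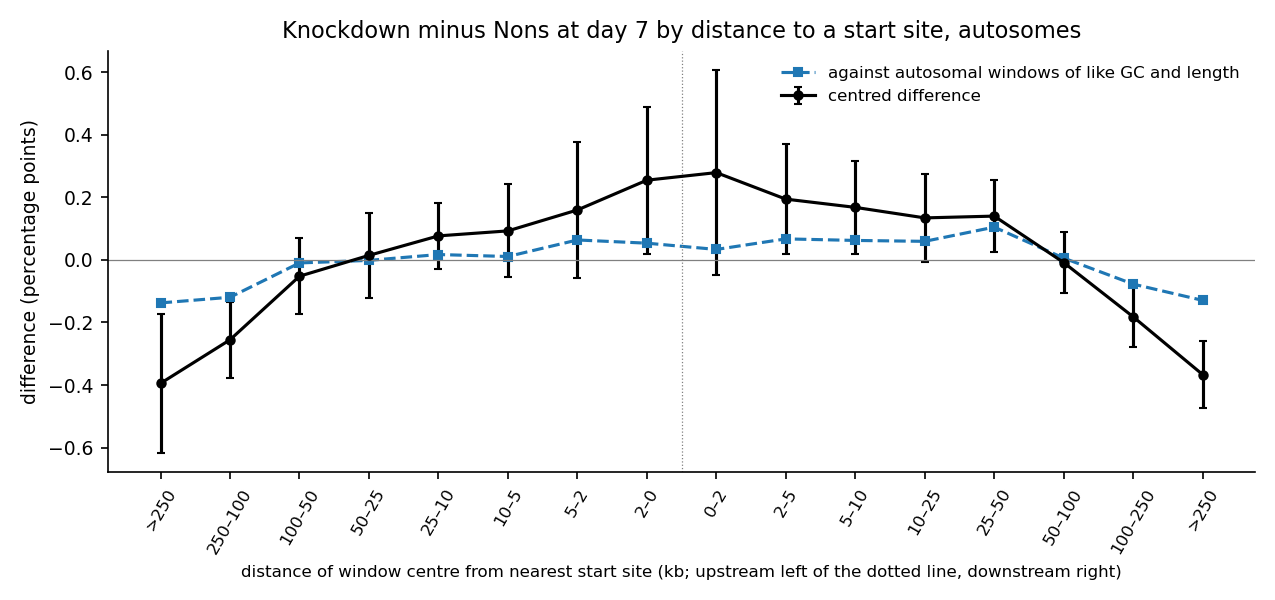
Difference between knockdown and Nons at day 7 (percentage points) of autosomal windows by distance of the window centre from the nearest start site (kb, upstream on the left), as the centred difference with bars for the SD over 19 autosomes and against windows of like GC and length. The centred difference is 0.255 and 0.279 points within 2 kb on either side and -0.395 and -0.367 points beyond 250 kb, and the matched line is flatter.

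Promoter windows, those that contain such a start site, were the most open class in both libraries. The 27017 autosomal promoter windows averaged 9.84% in Nons and 11.1% in the knockdown. Their centred difference was 0.239 points (SD 0.281), above 0 on 15 of 19 autosomes, and its gap to other windows was 0.247 points by subtraction but -0.154 points under ratio scaling and -0.553 points under quantile normalization. Matched for GC and length the gap was 0.0383 points, with 9 of 19 autosomes above 0, and with medians it was 0.0663 points. The relative change of promoters was -0.02 on the log2 scale against the autosomal ratio. Promoters therefore took part in the library-wide difference in proportion to their level, and whether they stood above or below other windows depended on how the shift was removed. Among all 28040 promoter windows, X included, 12.7% lay more than 10 points above the shift and 10.9% more than 10 points below it, with an SD of 9.80 points.

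Gene classes differed little. Promoters of protein-coding genes averaged 10.7% in Nons and 11.97% in the knockdown, with a centred difference of 0.293 points (SD 0.446). For lncRNA genes the averages were 8.39% and 9.57%, with 0.198 points (SD 0.398). Start sites of pseudogenes, which mostly lack a working promoter, averaged 6.75% and 7.58%, with -0.145 points (SD 0.273), the value of intergenic windows. Each of these was within its SD over autosomes.

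CpG content separated protein-coding promoters more, though within the spread over autosomes. CpG-rich promoters, typical of housekeeping and developmental genes, averaged 13.8% in Nons and 15.6% in the knockdown (7301 windows, centred difference 0.815 points, SD 0.903). CpG-poor promoters, typical of tissue-restricted genes, averaged 7.43% and 8.25% (7852 windows, -0.155 points, SD 0.352). The gap of 0.970 points equalled its SD over autosomes, was 0.0913 points under ratio scaling and turned to -0.812 points under quantile normalization. Matched for GC and length, CpG-rich promoters stood at 0.41 points and CpG-poor promoters at -0.213 points. By means the X went the other way in size, with 0.0861 points for its 156 CpG-rich promoters and 0.521 points for its 462 CpG-poor ones. The CpG-poor ones averaged 6.76% in Nons and 8.25% in the knockdown. Medians, taken relative to the autosomal median difference, were alike on the X, at 0.310 points for CpG-rich and 0.300 points for CpG-poor promoters. A single chromosome gives no spread for these values.

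The most open regulatory windows were picked from the other 7 libraries, as the autosomal windows in the top 1% of mean level (26.6% or more). Of these 7885 windows, 55.7% were promoters and 29.7% lay more than 5 kb from any start site, where enhancers are common. The open promoters averaged 15.7% in Nons and 17.5% in the knockdown, and the open distal windows 12.3% and 14.0%. Their centred differences, 0.819 and 0.663 points, became -0.379 and -0.0692 points under ratio scaling and -1.56 and -0.80 points under quantile normalization. Sites that were open in the other libraries thus kept their rank above the genome average in both day 7 libraries. Against the library-wide ratio the open promoters stood at -0.03 and the open distal windows at -0.01 on the log2 scale.

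The X chromosome had the lowest mean level of all 20 chromosomes in both libraries, 6.61% in Nons against 6.87% to 7.29% on the autosomes and 7.42% in the knockdown against 7.90% to 8.38%. Its centred difference of -0.163 points lay below that of every autosome, which ran from -0.0795 points on chromosome 13 to 0.112 points on chromosome 11. The X also had the lowest GC content, 39.8% against 41.2% on chromosome 3 to 44.9% on chromosome 11. Once windows were matched for GC and length, the X value was 0.00728 points, inside the autosomal range of -0.0496 to 0.0562 points and no longer below the autosomes. Matching for accessibility level in the other 7 libraries left it at -0.159 points. It was also less negative under ratio scaling (-0.101 points), and under quantile normalization (-0.041 points) it lay within the autosomal range. X promoters did not share the lower value, averaging 8.74% in Nons and 10.02% in the knockdown, with a centred difference of 0.299 points against 0.239 points for autosomal promoters, a gap of 0.060 points beside an SD over autosomes of 0.281.

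**Figure D3:**
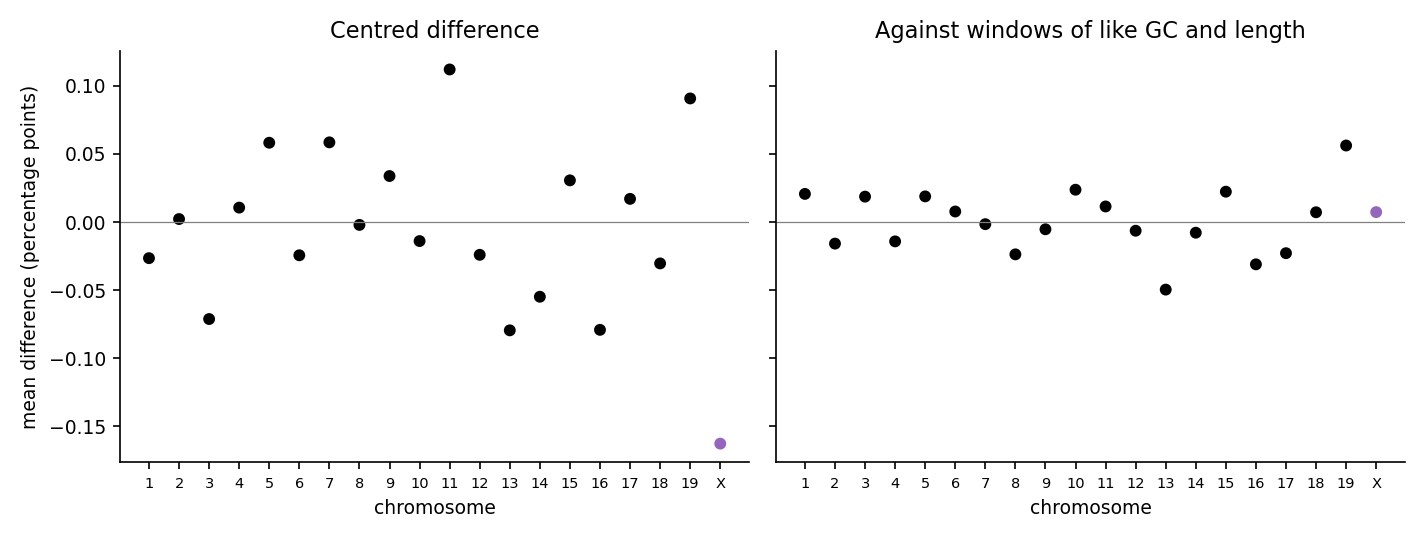
Centred difference between knockdown and Nons at day 7 (percentage points) for each autosome and the X, as measured and after matching for GC content and window length. The X lies at -0.163 points, below all autosomes, and at 0.00728 points after matching.

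Along the X, blocks of 10 Mb ranged around this mean. Leaving out the end block of 8 windows, 15 of 17 blocks were below 0. The lowest was 110 to 120 Mb, with 6.65% in Nons, 7.11% in the knockdown and a centred difference of -0.519 points, which was -0.224 points after matching. The highest was 50 to 60 Mb, with 6.62% and 7.75%, 0.155 points, and 0.271 points after matching. The block from 100 to 110 Mb, which holds the X inactivation centre, was at -0.0523 points.

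The mean of the X inactivation centre itself lay above the X average. In the 114 windows of the interval that spans Tsix, Xist, Jpx and Ftx the means were 8.56% in Nons and 10.4% in the knockdown, a centred difference of 0.828 points (0.344 under quantile normalization) against -0.163 points for the X as a whole. The median of these windows was -0.0529 points, with 50% above the shift. Of the 114 windows, 16 (14.04%) lay more than 10 points above it and 8 (7.02%) more than 10 points below, so a few windows carried the mean. Among all autosomal windows these shares were 6.6% and 5.28%. The interval was also more open than the autosomal average in the other 7 libraries, and windows of like level were not compared. The windows around the starts of its genes were not of one direction. At the Xist start (chrX:103482394-103485425), from which the RNA that coats the inactive X is transcribed, GpC methylation was 15.3% in Nons and 1.82% in the knockdown, a centred difference of -14.5 points. In the other 7 libraries this window ranged from 6.33% in the knockdown at day 6 to 37.7% in Nons at day 5, and the day 7 knockdown was thus the lowest of the 9. Before centring, the knockdown lay below Nons at this window at every day from 4 to 7. At days 4 to 6 the knockdown had 20.1% against 23.9%, 31.2% against 37.7% and 6.33% against 6.96%. With the library-wide shift of each day subtracted, the differences at days 4 to 6 were -0.991, -5.25 and -2.07 points. At day 7 the SD was 9.80 points over all promoter windows. It was 12.1 points over autosomal promoters in the top decile of level in the other 7 libraries. The Xist window, at 21.3% in those libraries, is of that level. No such SD is given for days 4 to 6.

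Tsix is transcribed antisense to Xist and opposes it. Its start window was at 10.8% in Nons and 7.69% in the knockdown. Jpx, a non-coding activator of Xist, had 13.1% and 25%, a centred difference of 10.9 points. Ftx, another non-coding gene on the Jpx side, had 12.1% and 8.57%. Rlim, whose ubiquitin ligase removes the Xist repressor Zfp42, had 8.05% and 5.56%. Of these starts, Xist and Jpx were more than 10 points from the shift, in opposite directions. Their gene bodies, averaged over more windows, were at 1.65 points for Tsix (19 windows), 2.38 points for Ftx (23 windows), -0.173 points for Jpx (28 windows) and 0.328 points for Xist (9 windows). The body of Ftx averaged 7.24% in Nons and 10.6% in the knockdown, yet its median centred difference was -0.119 points, so a few windows made the mean.

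Among X-linked genes outside the centre, Hprt, a purine salvage gene subject to inactivation, had 12.2% in Nons and 6.06% in the knockdown at its start. Kdm6a and Kdm5c, histone demethylase genes that escape inactivation, had 9.52% against 11.5% and 13.2% against 35.7%. The list of X escape genes covers 10 windows, including the Xist, Jpx and Ftx starts of the centre. Its means were 15.1% in Nons and 19.5% in the knockdown, with 7 windows (70%) above the shift. Of autosomal promoters in the top decile of level in the other 7 libraries, 50.2% lay above it. The escape gene Pbdc1 had 17% and 39.1%, and Ddx3x, an RNA helicase, had 33.7% and 17.1%. Since both alleles were merged, no escape or silencing can be read from these values.

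To show what the assay could read at a start site, the 250 bases before the RefSeq start are printed for Smarcc1, Xist and the genes with the largest centred difference in the pluripotency and formative lists, Utf1 and Fgf5. They are in GRCm38.p6 coordinates, 5′ to 3′ on the strand of the gene, with each GpC dinucleotide in capitals. They hold 27, 13, 22 and 24 GpC sites. The Xist promoter is the poorest of these, at 38% GC. Over 32851 promoters of the RefSeq table the median was 16 GpC sites in 250 bases, with quartiles of 11 and 23.
Smarcc1, chr9:110131774-110132023, plus strand: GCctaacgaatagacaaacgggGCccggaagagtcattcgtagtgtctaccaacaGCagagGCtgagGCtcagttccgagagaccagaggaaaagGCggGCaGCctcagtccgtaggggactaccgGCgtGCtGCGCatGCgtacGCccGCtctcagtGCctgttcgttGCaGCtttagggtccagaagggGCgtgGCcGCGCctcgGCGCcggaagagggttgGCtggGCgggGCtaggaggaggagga
Xist, chrX:103483234-103483483, minus strand: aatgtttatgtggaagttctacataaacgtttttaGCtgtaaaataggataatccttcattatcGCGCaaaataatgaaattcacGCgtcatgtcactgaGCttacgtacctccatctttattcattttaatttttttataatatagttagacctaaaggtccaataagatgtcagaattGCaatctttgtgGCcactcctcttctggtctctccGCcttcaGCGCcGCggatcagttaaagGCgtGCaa
Utf1, chr7:139943606-139943855, plus strand: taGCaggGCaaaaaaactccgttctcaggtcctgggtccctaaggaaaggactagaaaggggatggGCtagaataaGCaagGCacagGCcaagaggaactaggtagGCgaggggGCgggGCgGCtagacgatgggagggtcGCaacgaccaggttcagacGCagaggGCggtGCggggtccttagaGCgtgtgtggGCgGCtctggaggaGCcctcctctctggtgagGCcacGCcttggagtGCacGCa
Fgf5, chr5:98253934-98254183, plus strand: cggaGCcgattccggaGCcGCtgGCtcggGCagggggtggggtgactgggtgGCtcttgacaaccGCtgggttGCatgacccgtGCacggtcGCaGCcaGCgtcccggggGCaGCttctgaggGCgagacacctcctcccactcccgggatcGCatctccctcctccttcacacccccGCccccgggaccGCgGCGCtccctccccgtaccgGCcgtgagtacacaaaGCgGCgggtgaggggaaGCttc

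Averages over bins of 1 Mb placed the differences along the genome. Of 2505 bins with at least 200 windows, 2359 were autosomal and 146 on the X, with a median of 332 windows. The levels of the pair were alike along the genome, with Pearson's r of 0.78 between Nons and the knockdown over the autosomal bins, given as a description since the libraries share composition and mapping. The centred difference had an SD over autosomal bins of 0.463 points, little above the mean standard error within a bin of 0.365 points, and 70.9% of autosomal bins lay within 0.5 points of 0. Bins above 0 made up 45.8% of the autosomal bins (1081 bins) and 30.8% of the X bins (45 of 146). After matching for GC and length these shares were 48.9% and 41.8%.

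The bin values followed GC content, with r of 0.553. The quintile of bins lowest in GC (mean 37.5%) averaged -0.395 points, with 16.5% of bins above 0, and the quintile highest in GC (mean 47.8%) averaged 0.294 points, with 78.8% above 0. Gene cover gave r of 0.332 and repeat content -0.383. When each bin was split into interleaved sets of alternate windows, the sets correlated with r of 0.236, and after matching for GC and length with r of 0.0631. Most of the regional structure that repeated between the sets was thus shared with composition and window length. The day 7 bin differences correlated with those of days 4, 5 and 6 with r of 0.0792, -0.233 and 0.187.

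**Figure D4:**
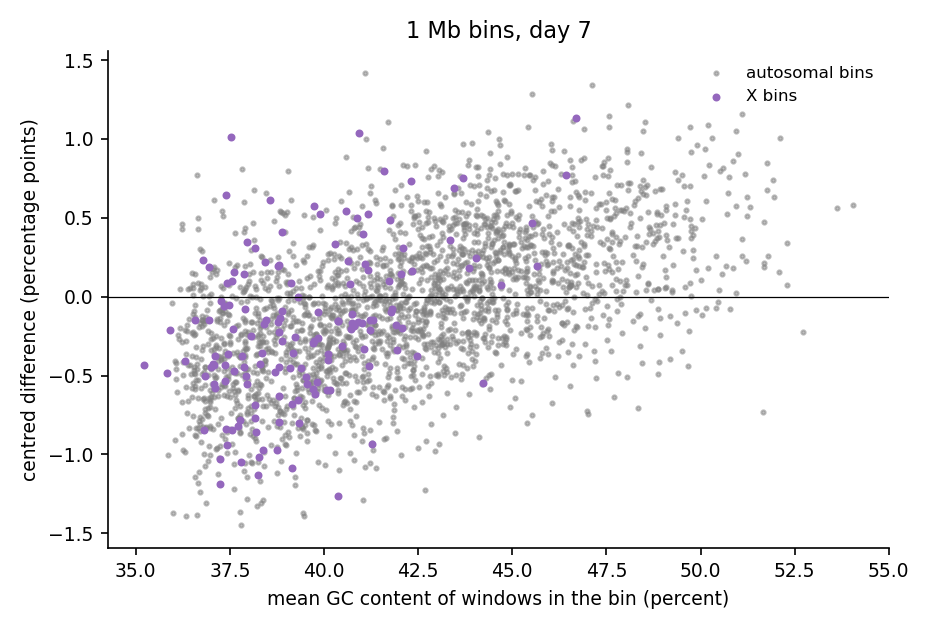
Centred difference between knockdown and Nons at day 7 (percentage points) of each 1 Mb bin with at least 200 windows against its GC content (percent), autosomes and X marked apart. Autosomal bins are higher where GC content is higher (Pearson's r 0.553), and the lowest and highest bins lie at -1.45 and 1.42 points.

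The bins farthest from the shift were taken as the ends of this spread and are a description. The highest was chr9:100000001-101000000, which holds Il20rb, Nck1, Slc35g2 and the cohesin gene Stag1, with 7.12% in Nons and 9.52% in the knockdown (1.42 points). Next were chr11:32000001-33000000 at 1.34 points, with Snrnp25 and Rhbdf1 close to the alpha-globin genes, and chr12:8000001-9000000 at 1.29 points, with Gdf7 and Rhob. The bin chr12:86000001-87000000, with the pluripotency gene Esrrb and Tgfb3, stood at 1.22 points, and chr2:167000001-168000000 at 1.16 points. Matched for GC and length these bins stood between 0.783 and 1.50 points. All were gene-bearing, and on days 4 to 6 none of them was above 0 at every day.

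The lowest bins were poor in genes, with 0 or 1 coding gene start in each against 4 to 17 in the highest. The bin chr12:46000001-47000000, where Nova1 is the named coding gene, had 7.15% in Nons and 6.68% in the knockdown (-1.45 points). The bin chr16:80000001-81000000 held no coding gene start and stood at -1.39 points. The bin chr5:42000001-43000000, with the coding gene Gm16223, stood at -1.39 points as well. The bin chr4:77000001-78000000 was at -1.38 points and chr14:108000001-109000000 at -1.37 points. In these bins the knockdown was below Nons even before centring, and its share of windows at 0 ran from 5.68% to 10.3%. Matched values were between -1.17 and -1.02 points.

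Gene lists were read at the start-site window of each member. In mESC differentiation the naive pluripotency network is switched off, formative genes are used transiently and lineage genes follow. A list of 20 or 30 single windows is uncertain, since a promoter window had an SD of 9.80 points. Over all promoter windows, 12.7% lay more than 10 points above the shift and 10.9% more than 10 points below it. Open promoters spread more. For autosomal promoters in the top decile of level in the other 7 libraries the SD was 12.1 points, and these shares were 18.3% and 16.1%. Apart from the blood, olfactory receptor and vomeronasal receptor lists, every list had its mean level in that decile. The shares of the lists in that decile are therefore to be read against 18.3% and 16.1%. Lists at its lower end, such as endoderm and mesoderm genes, are matched less closely by these shares. Over all promoter windows the median centred difference was -0.258 points, with quartiles of -5.28 and 5.28, and 48.6% lay above the shift.

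The pluripotency list had the largest positive mean of the 21 lists. Its 23 windows averaged 13.9% in Nons and 20.8% in the knockdown, a mean centred difference of 5.93 points and a median of 6.73, with 4.98 and 3.55 points under ratio scaling and quantile normalization. Of the 23, 15 lay above the shift, 8 by more than 10 points, and 4 lay more than 10 points below it. The quartiles reached from -6.8 to 13.6 points, so the list was far from uniform. More members are named than the rule gives because the list stood at the end of the order, a choice made after its values were seen.

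Utf1, a chromatin-bound factor of undifferentiated cells, had 30.9% in Nons and 72% in the knockdown (chr7:139943068-139944758), and the other 7 libraries ranged from 13.9% to 44.8%. Klf4, a zinc-finger factor of the naive network, had 19.4% and 58.5% (chr4:55531033-55533028), against 7.89% to 62.1% in the others. The Utf1 value of the knockdown was thus outside the range of the series, and the Klf4 value inside it. Klf2, a relative of Klf4, had 5.71% and 23.8%, and Stat3, the effector of LIF signalling, had 14.6% and 32.1%. Prdm14, Lin28a, Tcl1 and Fbxo15 were between 10.6 and 14.7 points above the shift. The core factors Nanog (8.33% and 18.2%) and Pou5f1 (11.5% and 20.5%) stood 8.87 and 8.08 points above it.

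Members on the other side included core factors too. Sox2, the partner of Pou5f1, had 42.4% in Nons and 28.6% in the knockdown, and Esrrb, an orphan nuclear receptor, had 14.7% and 2.78%. Klf5 had 19% and 7.69%, and Gbx2 had 19.2% and 8.89%. The 9 members not named here lay between -7.64 and 9.63 points. Away from the start windows the list was much nearer to the shift. Its 235 gene-body windows had a mean centred difference of 0.69 points and its 165 flanking windows 0.705 points. At days 4, 5 and 6 the start windows averaged -2.03, -1.44 and 2.3 points, so no shared direction ran through the time course.

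The formative and primed list had the most negative mean. Its 12 windows averaged 15.1% in Nons and 8.82% in the knockdown, a mean centred difference of -7.22 points and a median of -5.75, with -8.33 and -8.49 points under ratio scaling and quantile normalization. None lay more than 10 points above the shift and 4 lay more than 10 points below it. Fgf5, the ligand used as a mark of the epiblast after implantation, had 40% in Nons and 8.7% in the knockdown (chr5:98253216-98255324), and the other 7 libraries ranged from 13% to 37.6%. Dnmt3b, a de novo DNA methyltransferase, had 26.9% and 0%, and Foxd3, a forkhead repressor, had 14.3% and 0%. For Fgf5 the pair were the highest and the lowest of the 9 libraries.

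Grhl2, an epithelial factor, had 23.9% and 11.1%, and Otx2, a homeobox factor of the formative state, had 7.04% and 1.75%. Members above the shift included Etv4 (8.82% and 18.8%), Dnmt3a (11% and 18.2%) and Pou3f1 (3.16% and 6.25%), with Etv5 at 0.123 points. The list mean at days 4, 5 and 6 was -5.18, -5.66 and 3.19 points. Its 207 gene-body windows stood at a mean of 0.0308 points with a median of -0.364. Its 94 flanking windows had a mean of -0.542 points and a median of -2.54, with 38.3% above the shift, and a mean of -0.95 points under ratio scaling and -1.26 points under quantile normalization. Without windows at 0, the mean of the remaining 10 start windows was -4.63 points.

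**Figure D5:**
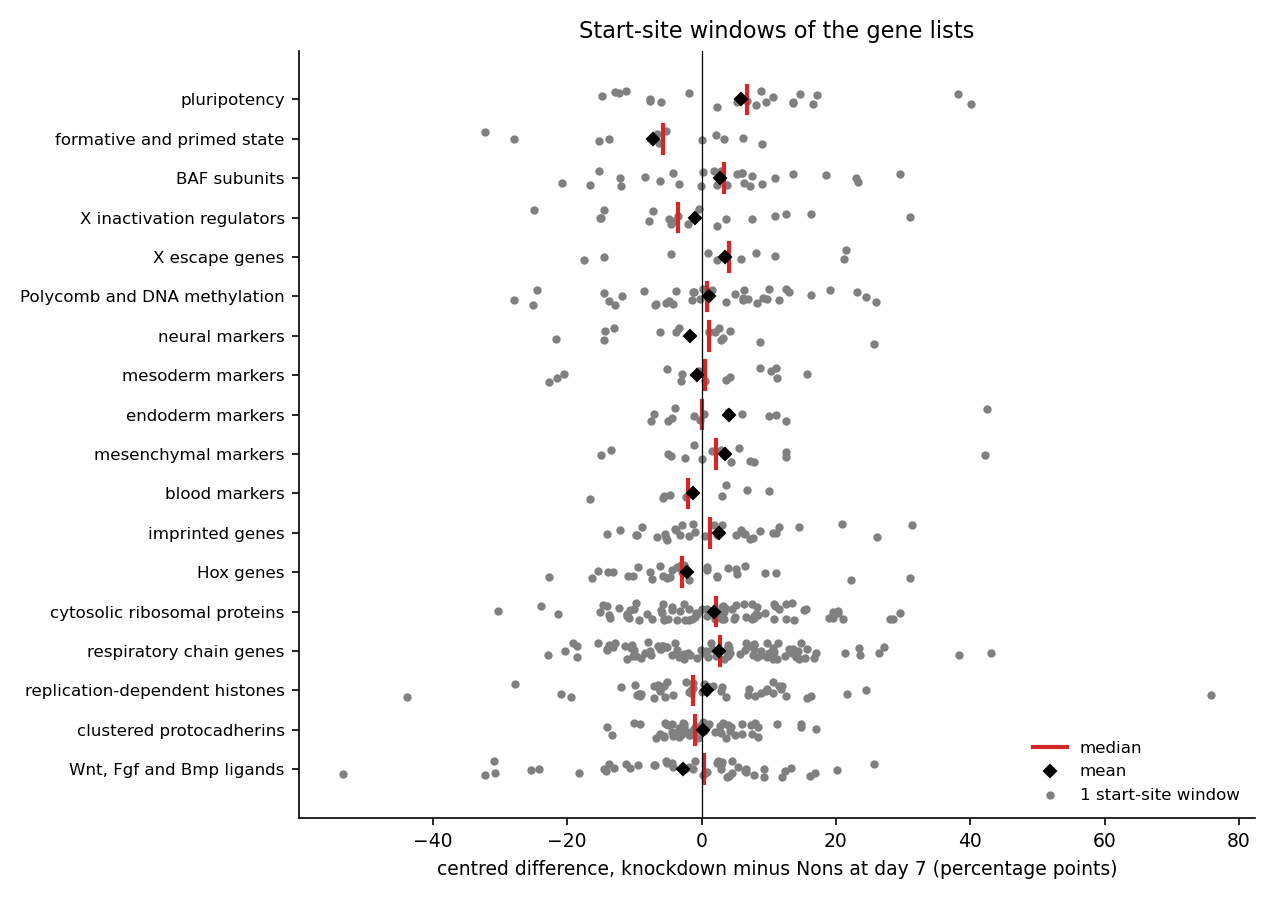
Centred difference between knockdown and Nons at day 7 (percentage points) at each start-site window (grey points) of the gene lists other than the chemosensory receptor and Zfp lists, with the mean (diamond) and median (red line) of each list. The pluripotency list has the highest mean, 5.93 points, and the formative and primed list the lowest, -7.22 points, and members of every list shown lie on both sides of 0.

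BAF subunits, the complex to which Smarcc1 belongs, averaged 12.7% in Nons and 16.4% in the knockdown over 28 windows, a mean centred difference of 2.79 points (2.01 and 1.00 under the other scalings), with 18 above the shift. Smarca4 had 16% and 23.3% at its start (chr9:21616147-21618277). Dpf1, a subunit of the neuronal form, had 23.6% and 54.2%, and Pbrm1, of the polybromo form, had 8.33% and 32.7%. At the other end Bicral, of the non-canonical form, had 28.4% and 8.57%, and Smarcd2 had 19.6% and 4%. Of the 28 windows, 6 lay more than 10 points above and 5 more than 10 points below the shift. The 776 gene-body windows of the list stood at 0.318 points.

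Regulators of X inactivation averaged 16.3% in Nons and 16.2% in the knockdown over 19 windows, with 7 above the shift and a mean centred difference of -1.03 points. Hnrnpu, which ties Xist RNA to chromatin, had 8.93% and 40.9%, and Pcgf5, a Polycomb protein, had 16.7% and 34%. Wtap, of the RNA methyltransferase complex, had 25.5% and 1.52%, and Ciz1, a matrix protein that anchors Xist, had 16.4% and 2.17%. Polycomb and DNA methylation genes averaged 14.6% and 16.7% over 38 windows, with 20 above the shift, at 1.16 points by subtraction, 0.117 points under ratio scaling and -0.995 points under quantile normalization. In that list Rnf2, the Polycomb ubiquitin ligase, had 5.56% and 32.6%, Cbx8 had 12.3% and 37.8%, and Ezh2, the H3K27 methyltransferase, had 34.1% and 10%.

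Lineage lists had no common direction. Endoderm genes averaged 8.41% in Nons and 13.5% in the knockdown over 14 windows, but the mean of 4.1 points stood beside a median of 0.0689, with 7 of 14 above the shift. Foxa2, the endoderm forkhead factor, had 3.23% and 46.7%, above the range of 6.85% to 34.1% in the other libraries, and Sox7 had 10% and 23.5%. Cer1, a secreted Nodal and BMP antagonist, had 12% and 5.45%. Foxa2 alone therefore made much of the endoderm mean.

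Mesenchymal genes averaged 12.3% and 16.7% over 16 windows, with a mean of 3.45 points and a median of 2.21. Snai1, a repressor of E-cadherin, had 10.3% and 53.6%, and Twist1 had 7.5% and 21.1%. Snai2 had 26.2% and 12.2%, and Tagln, an actin-binding protein gene, had 28.2% and 15.6%. Snai1 was above its range of 0% to 50% in the other libraries. Its relative Snai2 differed in the opposite direction.

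Neural genes averaged 14.7% and 14.0% over 15 windows, with a mean of -1.76 points, a median of 1.08 and 8 above the shift. Hes5, a Notch target, had 4.26% and 31%, and Nes, the nestin gene of neural progenitors, had 29.2% and 8.42%. Mesoderm genes averaged 12.1% and 12.3% over 15 windows, with a mean of -0.731 points and a median of 0.462. Eomes, a T-box factor, had 30.6% and 47.4%, and T, the brachyury gene, had 25.5% and 5.06%, so these T-box genes lay on opposite sides. Blood genes averaged 7.97% and 7.64% over 10 windows, with 4 above the shift, and Tal1, a blood lineage factor, had 15.6% and 0%.

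Hox genes, which pattern the body axis and are kept silent by Polycomb in mESCs, averaged 11.96% in Nons and 10.8% in the knockdown over 35 windows. They stood at -2.13 points by subtraction, -2.81 under ratio scaling and -3.17 under quantile normalization. Of the 35, 12 (34.3%) lay above the shift, 3 (8.57%) more than 10 points above it and 7 (20%) more than 10 points below. For autosomal promoters in the top decile of level, which holds the list mean of 21.9%, these shares were 50.2%, 18.3% and 16.1%. Hoxa7 had 26.7% and 5%, and Hoxa5 had 15.4% and 0%. Hoxc11 had 14.5% and 46.4%, and Hoxd10 had 11.1% and 34.3%. The 138 flanking windows, inside the same clusters, stood at -0.87 points.

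Imprinted genes, expressed from one parental allele, averaged 8.82% in Nons and 12.3% in the knockdown over 34 windows, at 2.52 points by subtraction, 2.28 under ratio scaling and 1.78 under quantile normalization, with a median of 1.2 and 18 above the shift. Ube3a had 15% and 47.4%, Nap1l5 had 9.23% and 36.4%, Airn, an antisense non-coding RNA, had 16.8% and 3.7%, and Nnat had 11.1% and 0%. Wnt, Fgf and Bmp ligands averaged 13.2% and 11.3% over 50 windows. Their mean of -2.83 points differed in sign from the median of 0.371, and 26 windows lay above the shift. Fgf16 had 54% and 1.59%, and Fgf11 had 2% and 28.6%.

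Housekeeping lists gave larger sets. Respiratory chain genes averaged 13.0% in Nons and 16.5% in the knockdown over 94 windows, at 2.54 points by subtraction, 1.71 under ratio scaling and 0.651 under quantile normalization. Of the 94, 53 lay above the shift, 27 by more than 10 points, and 17 more than 10 points below. Atp5d, of the ATP synthase, had 1.45% and 45.5%, and Cox4i2, a cytochrome c oxidase subunit, had 19.4% and 0%. Cytosolic ribosomal protein genes averaged 13.8% and 16.6% over 82 windows, with 45 above the shift, at 1.8 points by subtraction and 0.86 under ratio scaling, but -0.226 under quantile normalization. Rps21 had 2.44% and 32.9%, and Rps19 had 51% and 21.7%. Both lists held members far from the shift on either side. Their mean levels were also in the top decile of the other 7 libraries. Autosomal promoters of that decile had 18.3% more than 10 points above and 16.1% more than 10 points below the shift.

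Replication-dependent histone genes averaged 16.6% in Nons and 18.4% in the knockdown over 50 windows, at 0.854 points by subtraction but -0.464 under ratio scaling, with a median of -1.25 and 24 above the shift. Hist1h1c, a linker histone gene, had 2.33% and 79.2%, and Hist3h2a had 55.3% and 12.5%. Zfp zinc-finger genes, many of which repress retroelements, averaged 11.5% and 13.6% over 378 windows, with 205 above the shift, at 1.11 points by subtraction, 0.49 under ratio scaling and -0.189 under quantile normalization. Zfp1 had 1.25% and 41.5%, and Zfp367 had 77.8% and 5.71%. Clustered protocadherin genes averaged 8.42% and 9.56% over 57 windows, at 0.16 points by subtraction but -0.0306 under ratio scaling, with a median of -0.976 and 26 above the shift.

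The chemosensory receptor genes, typical of sensory neurons and packed in AT-rich clusters, form large lists. Olfactory receptor genes averaged 6.51% in Nons and 6.95% in the knockdown over 1077 windows, at -0.539 points (-0.465 and -0.331 under the other scalings). Of these windows 476 (44.2%) lay above the shift, 43 (3.99%) by more than 10 points, and 38 (3.53%) more than 10 points below. For autosomal promoters of like level, 13.9% to 14.6% in the other 7 libraries, these shares were 47.5%, 8.41% and 6.26%. Vomeronasal receptor genes averaged 6.38% and 6.44% over 314 windows, at -0.914 points (-0.821 and -0.656 under the other scalings), with 136 above the shift. Matched for GC and length these values were -0.265 and -0.605 points. Both lists were thus below the shift under each scaling, and lower than the -0.381 points of windows beyond 250 kb from a start.

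Single promoters ended the range. Among 18896 protein-coding promoter windows of 5 kb or less with a mean level of at least 10% in the other 7 libraries, the centred difference had an SD of 10.7 points. The 5 highest and 5 lowest are the tails of that spread and support nothing by themselves. The highest were Hist1h1c, Msl2 (a ubiquitin ligase of the MSL complex, 0% and 76.5%), Thsd4 (4.65% and 76%), Gjc1 (a connexin, 10.3% and 80.9%) and Lrp12 (10% and 76.2%). The lowest were Ccdc85c (100% and 17.9%), Zfp367, Gadd45b (a stress-response gene, 61.4% and 2.63%), Uhrf2 (a reader of modified cytosine, 61.5% and 3.85%) and Smad6 (an inhibitor of BMP signalling, 55.2% and 0%). Their differences at days 4 to 6 were of mixed sign. Gjc1, at 69.5 points on day 7, had -45.1, -12.4 and -31.6 points at days 4, 5 and 6.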

How the data were processed

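GpC methylation was measured by NOMe-seq in 9 libraries, of which the Nons and Smarcc1 knockdown libraries of day 7 were compared. Groups came from the sample titles. Cells were fixed in formaldehyde before GpC methyltransferase treatment. Reads were trimmed by the authors (trim_galore), mapped with bismark to mm10 with the FVB and CAST variant sites masked, and reduced to GpC calls by coverage2cytosine in its NOMe-seq mode. The labels' processing notes name Bismark, bcl2fastq and mm10. The deposited values are the percent of methylated GpC calls in windows of 200 read positions, computed by the authors in Seqmonk with both alleles merged. No counts accompany them, so the depth is unknown and no interval was computed, and the number of read positions is as the labels state it.

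From these values the centred difference was computed as knockdown minus Nons minus the mean paired difference over autosomal windows. Genes were from GENCODE release M21 on GRCm38, the assembly of mm10, with starts of 21755 protein-coding and 9603 lncRNA genes defining promoter windows. RefSeq starts were an alternative, and of 16081 coding genes with both starts in a window, 85.9% shared it. CpG-rich promoters had a CpG observed to expected ratio of at least 0.6 and at least 55% GC in 1 kb around the start, and CpG-poor promoters a ratio under 0.4. Matched values compare each window with autosomal windows of the same GC and length class (20 GC and 5 length classes). Named genes were those the study is about, the 2 highest and 2 lowest members of each list and the 5 highest and 5 lowest promoters, in windows of 5 kb or less with at least 10% mean level in the other 7 libraries, and the 5 highest and 5 lowest 1 Mb bins of at least 200 windows. Other list members were named after their values were seen, and some named by the rule are not reported here. Members and lists were chosen with earlier results of these data known. The scripts were tested on simulated data and used Python 3.11.15, pandas 2.3.3, numpy 2.4.6 and matplotlib 3.10.9. Guide sequences were from the study's supplementary list of hairpins and promoter sequences from RefSeq on GRCm38.p6.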

Additional observations from a re-analysis of the deposited data

Results flagged for a closer look

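Some values of the day 7 pair were opposite in sign to those of the day 5 pair, each beyond its SD over the 19 autosomes, and the difference between days was not tested because each day has 1 library per condition. The X minus autosomes value was 0.209 points at day 5 (SD 0.0976) and -0.163 points at day 7 (SD 0.0546), with -0.007 and 0.035 points at days 4 and 6. The gap between the highest and lowest GC quintile was -1.61 points at day 5 (SD 0.277) and 0.674 points at day 7 (SD 0.097), with all 19 autosomes below 0 at day 5 and all 19 above 0 at day 7. As a ratio, the same gap was -0.10 at day 5 and 0.10 at day 7 on the log2 scale. Across autosomal 1 Mb bins the difference correlated with GC content with Pearson's r of -0.415 at day 5 and 0.553 at day 7.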

How the results depend on the processing

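Of 60 alternative settings of the 7 class values, 46 moved the value by less than its SD over autosomes. Another 12 moved it by its SD or more, and 2 reversed a value that was itself beyond its SD. For the promoter, CpG and X promoter gaps the SD was at least as large as the value, so staying within it shows little. Under ratio scaling the promoter gap was -0.154 points, the X minus autosomes value -0.101, the GC gap 0.570 and the gap between the most open and most closed decile 0.020, against 0.247, -0.163, 0.674 and 0.415 by subtraction. Under quantile normalization these were -0.553, -0.041, 0.375 and -0.370, the CpG-rich minus CpG-poor gap was -0.812 (0.970 by subtraction) and the genic minus intergenic gap 0.156 (0.257). Matching for GC and length gave 0.00728 for the X and 0.127 for genic minus intergenic windows. The GC gap was 0.471 with medians and 0.845 without windows at 0 or 100%, where the shift was 1.25 points. The X minus autosomal promoter gap of 0.060 points ran from -0.051 with medians to 0.328 under quantile normalization, where its SD was 0.302. The cause of these moves was not tested. RefSeq starts and the list alternatives were chosen after seeing the data, and over them, with quantile normalization, the pluripotency mean ran from 3.55 to 6.18 points and the formative mean from -8.49 to -4.63. No paired analysis was possible because each condition has 1 library at day 7, and no replicate could be left out for the same reason. The unknown depth and the 1 library a side limit every value, and a single window's difference had an SD of 6.71 points.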

Other observations

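Gene bodies and flanks of the lists, which mostly average more windows than the starts, gave further values, picked after they were seen. Mesoderm genes had the highest body mean of the 21 lists, 2.04 points over 70 windows (median 1.25, SD of a window 9.40), with 7.66% in Nons and 10.7% in the knockdown. At days 4, 5 and 6 these bodies stood at 0.463, -3.64 and -2.01 points. The lowest body mean was that of replication-dependent histone genes, -1.47 points over 21 windows. Mesoderm genes stood at 0.803 points over 119 flanking windows, whereas their start windows stood at -0.731 points. Neural genes had the highest flank mean, 1.98 points over 107 windows (median 1.72, SD of a window 10.2), with 8.75% and 11.7%, beside -0.091 points over 149 body windows. At days 4, 5 and 6 these flanks stood at -2.52, -3.03 and 0.251 points. Zfp zinc-finger genes stood at 0.296 points over 4136 body windows and 0.403 points over 2231 flanking windows, and ratio scaling left the bodies at 0.296 points. Vomeronasal receptor genes stood at -0.445 points over 1056 body windows and -0.484 points over 1069 flanking windows, the same side as their starts.

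At the body of Hprt the 10 windows averaged 6.64% in Nons and 10.5% in the knockdown (2.89 points), opposite to its start window. The body of Smarca4 averaged 7.20% and 9.41% over 42 windows (1.24 points), the same side as its start.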
